A study of Mus musculus with 9 samples.

Results

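Integrins are cell-surface receptors made of an alpha and a beta subunit, and laminins are basement membrane proteins made of an alpha, a beta and a gamma chain. The genes described here are the rows of the deposited gene table whose symbol names an integrin alpha or beta subunit or a laminin chain, 36 of 18541 genes. They comprise 17 integrin alpha subunits, 8 integrin beta subunits and 10 laminin chains. The last of the 36, Itgb4bp, matches by its spelling alone: it is the older symbol of Eif6, a factor of ribosome assembly, and is no receptor subunit. The beta chain gene listed as Lamb1-1 does not match and is treated with the partner genes below.

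RNA of dorsal pancreatic epithelium, dissected by hand from e12.5 mouse embryos, was hybridised to Agilent arrays in 1 colour. There were 3 samples of each of 3 genotypes, and each RNA sample pooled 3 dorsal pancreata. Double heterozygotes were Sox9fl/+; Foxa3-Cre; Pdx1-/+, Sox9 heterozygotes were Sox9fl/+; Foxa3-Cre, and Pdx1 heterozygotes were Pdx1-/+. All were littermates. The Cre recombinase removes 1 conditional Sox9 allele and is driven by sequences of Foxa3, a gene of the early gut epithelium, whereas the Pdx1 allele is the LacZ knock-out Pdx1LacZko. Every group had lost an allele of at least 1 of the genes, wild-type embryos were not analysed here, and Foxa3-Cre is named for the double and the Sox9 heterozygotes only. Loss of the Sox9 allele and presence of the Cre therefore cannot be told apart against the Pdx1 heterozygotes. Both genes encode transcription factors that pancreatic progenitors need, and the question was which genes depend on the pair.

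Epithelial cells of the pancreatic bud rest on a basement membrane in which laminin trimers form a sheet with collagen IV, nidogen and perlecan. Cells hold on to this sheet mainly through integrins that share the Itgb1 subunit, and through the pair of Itga6 and Itgb4, which anchors keratin filaments. Other integrins bind fibronectin and vitronectin or interstitial collagens, and a further set is carried by white blood cells and platelets.

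The arrays had median signals between 347 and 353 units, and across genes the log2 signals of any pair of arrays correlated at 0.9804 to 0.9962. The double heterozygote sample 3, whose title names both replicate 3 and replicate 4, stood apart from the rest, since without it the lowest correlation was 0.99. Of the whole table, 57 genes (0.307%) passed an adjusted p of 0.05 (limma, Benjamini-Hochberg adjustment over all genes) in double against Sox9 heterozygotes, 20 (0.108%) in double against Pdx1 heterozygotes and 43 (0.232%) in Sox9 against Pdx1 heterozygotes. The FDR column of the authors' deposited table lay under 0.05 for 4292 genes (23.1%) in the first comparison and 3199 genes (17.3%) in the second. Its values were at the median 1.19 and 1.04 times the unadjusted p of the limma fit on the same log2 ratios. Of the 36 genes, the FDR is printed below where it is under 0.05, and it was above 0.05 in the other cases; a gene is said to have passed where the limma adjusted p is under 0.05. Sox9 averaged 334 ± 44.8 units in double heterozygotes, 304 ± 17.9 in Sox9 heterozygotes and 224 ± 22.4 in Pdx1 heterozygotes (SD, n = 3 each). Pdx1, listed as Ipf1, averaged 1233 ± 108 units in double heterozygotes, 1464 ± 133 in Sox9 heterozygotes and 1103 ± 26.4 in Pdx1 heterozygotes (SD, n = 3 each). The mean Pdx1 signal was thus lower in both groups with the Pdx1 allele lost, though double and Sox9 heterozygotes overlapped (limma adjusted p = 0.1394). The mean Sox9 signal was lowest in the group that kept both Sox9 alleles, against the labels. Neither gene passed in any comparison. Whether the Sox9 probe lies in the deleted part is not given in the sources used, so the groups are named by their labels throughout. The epithelial markers Cdh1 and Epcam (listed as Tacstd1) had signals of 11087 to 14156 and 8849 to 10988 units over the 9 samples. The lowest single value of any mesenchymal, endothelial, white blood cell or neural marker was 69 units. The whole table held no value under 32 units, so a signal above 0 does not show that a cell type was present. Some markers of other tissue were bright in all 9 samples. Among mesenchymal markers, Vim had 63349 to 75025 units and Pdgfrb 12239 to 19381, while 4 of 13 were in the lowest quartile of mean signal. Acta2, a smooth muscle marker, had 8556 to 13928 units. The samples are therefore not shown to be epithelium alone.

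None of the 36 integrin, laminin and Itgb4bp genes passed in any of the 3 comparisons. At an unadjusted p under 0.05 there were 8 in double against Sox9 heterozygotes (4 higher, 4 lower), which is 22.2% of the genes against 27.4% of the table (14.2% higher, 13.2% lower). In double against Pdx1 heterozygotes there were 8 (3 higher, 5 lower), 22.2% against 16.1% (7.77% higher, 8.38% lower). The samples of the 2 groups did not overlap for 13 genes in the first comparison (36.1% against 35.3% of the table) and 10 in the second (27.8% against 22.9%). An adjusted p under 0.1 was reached by 3 genes in the first comparison, among them Itga1 and Itga6 (8.33% against 2.5% of the table), and by 0 in the second (0.421% of the table) and in Sox9 against Pdx1 heterozygotes (0.361% of the table). The FDR of the authors' deposited table lay under 0.05 for 11 genes in the first comparison (4 higher, 7 lower, 30.6%), where 12% of the table was higher and 11.1% lower. In the second comparison the FDR of the authors' deposited table lay under 0.05 for 9 (3 higher, 6 lower, 25%), where 8.31% of the table was higher and 8.94% lower. The median absolute log2 difference was 0.158 over the 36 genes and 0.156 over the table against Sox9 heterozygotes, and 0.149 and 0.122 against Pdx1 heterozygotes. Both comparisons share the double heterozygote samples. The 95% interval of a single gene's difference reached 0.246 log2 units to either side at the median of the 36 genes, which sets the precision of the single values given below.

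Laminin alpha-1 (Lama1), the alpha chain of the laminin that is typical of early embryonic basement membranes, had 918, 950 and 1058 units in double heterozygotes, against 659, 718 and 838 units in Sox9 heterozygotes and 863, 787 and 804 units in Pdx1 heterozygotes. All double heterozygote samples were above all others. Its log2 difference was 0.41 against Sox9 heterozygotes (95% interval 0.18 to 0.63, adjusted p = 0.1004, FDR of 0.00219 in the authors' deposited table) and 0.25 against Pdx1 heterozygotes (0.03 to 0.48, adjusted p = 0.2784, FDR of 0.0286). Lamb3, a beta chain of epithelial laminin, had 147, 132 and 122 units in double heterozygotes, against 110, 114 and 121 units in Sox9 heterozygotes and 115, 119 and 103 units in Pdx1 heterozygotes. The groups were separated, though by 1 unit at the closest samples of the double and Sox9 heterozygotes. The mean signal of Lamb3 lay just above the lowest quartile of the table (percentile 25.3). Its log2 differences were 0.21 (0.01 to 0.42, adjusted p = 0.1733) and 0.25 (0.04 to 0.45, adjusted p = 0.2525), with an FDR of 0.0901 and 0.0237 in the authors' deposited table. Lama3, an alpha chain of epithelial laminin, had a log2 difference of -0.12 against Sox9 heterozygotes and -0.10 against Pdx1 heterozygotes. It was in the lowest quartile of mean signal, with all of its signals between 93 and 129 units.

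**Figure D1:**
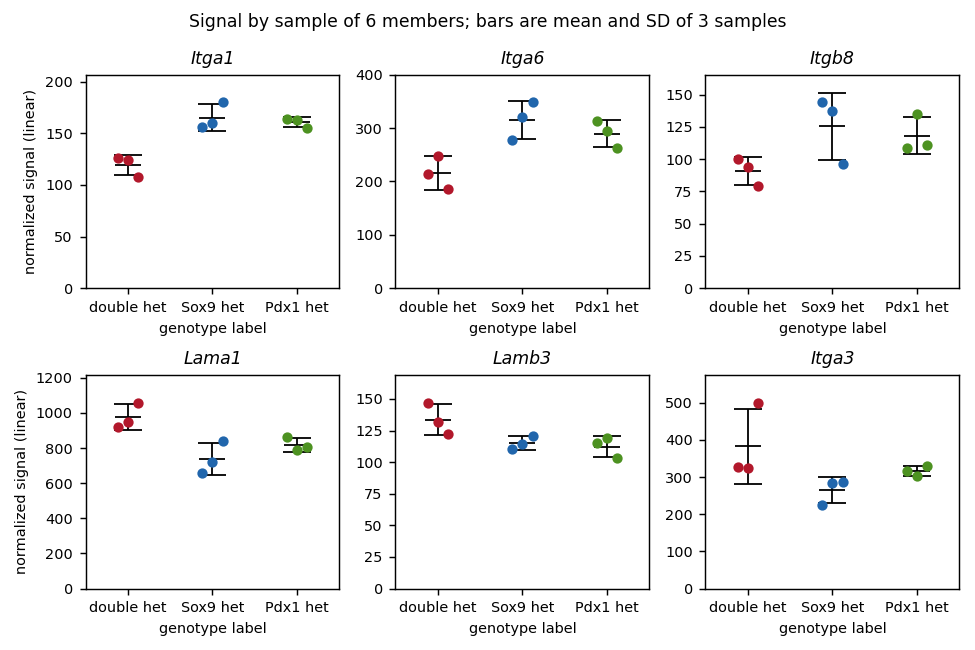
Normalized signal on a linear scale in each of the 9 samples for 6 genes, by genotype label, where points are samples and bars the mean and SD of 3 samples. Itga1, Itga6, Lama1 and Lamb3 have no overlap between double heterozygotes and either single heterozygote, and for Itga3 a single double heterozygote sample reaches 500 units.

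Lama5 and Lamc1 are the alpha and gamma chains of the laminin that prevails in later epithelial basement membranes. Lama5 had 5607, 5508 and 5792 units in double heterozygotes, against 5360, 4932 and 4725 units in Sox9 heterozygotes and 5933, 4828 and 4872 units in Pdx1 heterozygotes. Lamc1, which also joins Lama1, had 17674, 17978 and 17271 units in double heterozygotes, against 15206, 15792 and 16279 units in Sox9 heterozygotes and 17422, 14872 and 16787 units in Pdx1 heterozygotes. Both were separated from the Sox9 heterozygotes and overlapped the Pdx1 heterozygotes, where sample 1 reached the levels of the double heterozygotes. The log2 differences against Sox9 heterozygotes were 0.17 for Lama5 (-0.04 to 0.38, adjusted p = 0.2498) and 0.16 for Lamc1 (-0.01 to 0.34, adjusted p = 0.1985), and against Pdx1 heterozygotes 0.12 for Lama5 (adjusted p = 0.5082) and 0.11 for Lamc1 (adjusted p = 0.4576). Lamb1-1, the beta chain of both trimers, which the choice of symbols leaves out, differed by 0.17 against Sox9 heterozygotes (-0.06 to 0.40) and by 0.13 against Pdx1 heterozygotes (-0.10 to 0.36).

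Of the 10 laminin chains, 6 (among them Lama1, Lama5, Lamb3, Lamc1 and Lamc3) had every double heterozygote sample above every Sox9 heterozygote sample and none had every sample below, where 18.6% of all genes were separated upward and 16.7% downward. Against Pdx1 heterozygotes, chains separated upward included Lama1 and Lamb3, where 11.6% of all genes were, and Lama4 was separated downward, where 11.4% were. The median log2 difference of the chains was 0.12 and 0.05 in these comparisons, beside -0.000919 and 0.00964 over all genes, and it has no test. Lama4, a chain of vessels, had 64 to 68 units in double heterozygotes, against 64 to 73 units in Sox9 heterozygotes and 72, 109 and 72 units in Pdx1 heterozygotes. It was among the dimmest genes of the table, and its log2 difference of -0.33 against Pdx1 heterozygotes (FDR of 0.0343 in the authors' deposited table) was -0.13 without the Pdx1 heterozygote sample at 109 units. Lama2 and Lamc3 were also in the lowest quartile of mean signal, at 81 to 116 and 91 to 107 units, and Lamb2, a beta chain, differed by -0.08 and -0.17 (adjusted p = 0.5269 and 0.3532).

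Among the integrins that bind laminin, Itga6 showed the largest difference. It had 213, 248 and 185 units in double heterozygotes, against 277, 321 and 348 units in Sox9 heterozygotes and 313, 294 and 262 units in Pdx1 heterozygotes. Every double heterozygote sample was below every other sample. The limma fit gave a log2 difference of -0.55 against Sox9 heterozygotes (-0.84 to -0.27, adjusted p = 0.0954, FDR of 8.42e-04 in the authors' deposited table), a level 1.47-fold higher in Sox9 heterozygotes, and -0.43 against Pdx1 heterozygotes (-0.72 to -0.15, adjusted p = 0.189, FDR of 0.0018). Without the double heterozygote sample 3, its log2 differences were -0.45 and -0.33.

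Itgb4, the partner of Itga6 in the keratin-anchoring receptor, had 1300, 1324 and 1123 units in double heterozygotes, against 1367, 1280 and 1170 units in Sox9 heterozygotes and 1580, 1449 and 1441 units in Pdx1 heterozygotes. The Pdx1 heterozygotes were above both other groups, which overlapped each other. The log2 difference was -0.03 against Sox9 heterozygotes (-0.23 to 0.18) and -0.26 against Pdx1 heterozygotes (-0.46 to -0.05, adjusted p = 0.2464, FDR of 0.024 in the authors' deposited table). Itgb1, the beta subunit shared by most matrix receptors, had 3113, 3026 and 3660 units in double heterozygotes, against 2900, 2926 and 2954 units in Sox9 heterozygotes and 2898, 2812 and 3099 units in Pdx1 heterozygotes. Its log2 difference was 0.15 in both comparisons (adjusted p = 0.2583 and 0.3921), and 0.07 in both without the double heterozygote sample at 3660 units.

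Itga3, the other main laminin receptor of epithelia, had 326, 323 and 500 units in double heterozygotes, against 224, 285 and 287 units in Sox9 heterozygotes and 316, 303 and 330 units in Pdx1 heterozygotes. The double heterozygotes were above the Sox9 heterozygotes and overlapped the Pdx1 heterozygotes, and a single sample at 500 units stood above the rest of its group. On the log2 scale it differed by 0.51 against Sox9 heterozygotes (0.13 to 0.89, adjusted p = 0.1212, FDR of 0.00275 in the authors' deposited table) and 0.25 against Pdx1 heterozygotes (-0.13 to 0.62, adjusted p = 0.456). Without that sample the values were 0.30 and 0.04. Itga3 and Itga6 thus had opposite signs in both comparisons. Itga7, a laminin receptor of muscle, lay in the lowest quartile of mean signal, with 80 to 101 units in all samples.

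**Figure D2:**
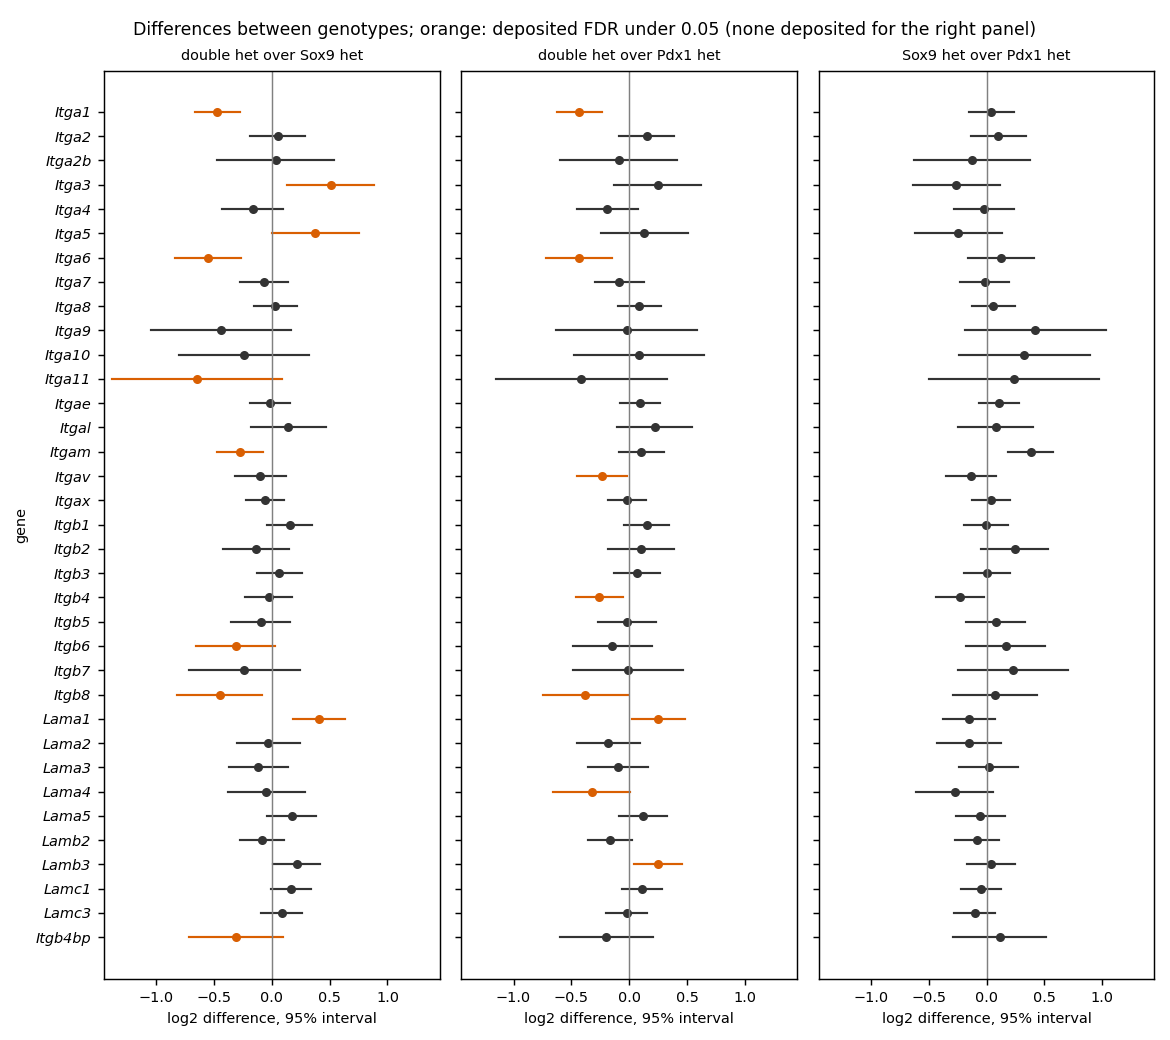
Log2 difference of each gene reported here with its 95% interval from the limma fit, for double over Sox9 heterozygotes, double over Pdx1 heterozygotes and Sox9 over Pdx1 heterozygotes; orange marks a deposited FDR under 0.05. Itga1, Itga6 and Itgb8 lie below 0 and Lama1 and Lamb3 above 0 in the 2 panels that share the double heterozygote samples.

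Among the collagen receptors, Itga1 had the clearest separation. Its signal was 126, 124 and 108 units in double heterozygotes, against 156, 160 and 180 units in Sox9 heterozygotes and 164, 163 and 155 units in Pdx1 heterozygotes. The single heterozygotes overlapped each other and lay wholly above the double ones. It differed by a log2 value of -0.47 against Sox9 heterozygotes (-0.67 to -0.28, adjusted p = 0.0715, FDR of 0.00214 in the authors' deposited table) and -0.43 against Pdx1 heterozygotes (-0.63 to -0.24, adjusted p = 0.1095, FDR of 9.55e-04). Over the other ways of fitting, the adjusted p ran from 0.0492 to 0.2335 against Sox9 heterozygotes.

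Itga11, a collagen receptor of fibroblasts, had 497, 653 and 286 units in double heterozygotes, against 1089, 667 and 490 units in Sox9 heterozygotes and 681, 578 and 556 units in Pdx1 heterozygotes. The groups overlapped, and the spread within the double and the Sox9 heterozygotes was wide. Its log2 difference of -0.65 against Sox9 heterozygotes (-1.38 to 0.09, adjusted p = 0.2227, FDR of 0.0286 in the authors' deposited table) was -0.31 without the double heterozygote sample 3 and -0.34 without the Sox9 heterozygote sample 1. Mesenchymal markers summed to 91748 to 95804 units in double heterozygotes, 89493 to 104876 in Sox9 heterozygotes and 92691 to 101320 in Pdx1 heterozygotes, with 4 of 13 in the lowest quartile of mean signal. Of these 13, 2 were higher and 1 was lower in double than in Sox9 heterozygotes at an unadjusted p under 0.05. Of the table, 14.2% was higher and 13.2% lower. The part of these markers in the result was not tested. In bulk tissue, fewer cells of a type and less RNA per cell cannot be told apart. Itga2 and Itga10, the other collagen receptors, were dim, at 78 to 103 and 85 to 190 units, and a single Sox9 heterozygote sample held the 190.

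Of the subunits that bind fibronectin and vitronectin, Itga5, the fibronectin receptor subunit, had 798, 721 and 1038 units in double heterozygotes, against 636, 667 and 646 units in Sox9 heterozygotes and 821, 604 and 917 units in Pdx1 heterozygotes. It was separated from the Sox9 heterozygotes, with a log2 difference of 0.37 (-0.00064 to 0.75, adjusted p = 0.1832, FDR of 0.0191 in the authors' deposited table). Against Pdx1 heterozygotes it differed by 0.13 (-0.24 to 0.51). Without the double heterozygote sample 3 these values were 0.22 and -0.02, and without the Pdx1 heterozygote sample 2 the difference from Pdx1 heterozygotes was -0.04. Itgav, the alpha subunit that pairs with several beta subunits, had 1052, 914 and 977 units in double heterozygotes, against 1179, 1023 and 959 units in Sox9 heterozygotes and 1109, 1108 and 1244 units in Pdx1 heterozygotes. Its values lay below those of the Pdx1 heterozygotes in every sample (log2 difference -0.23, -0.45 to -0.02, adjusted p = 0.2905, FDR of 0.0371 in the authors' deposited table) and overlapped those of the Sox9 heterozygotes (-0.10, -0.32 to 0.12).

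Itgb8, an Itgav partner known for releasing latent TGF-beta, had 100, 94 and 79 units in double heterozygotes, against 144, 137 and 96 units in Sox9 heterozygotes and 109, 135 and 111 units in Pdx1 heterozygotes. A single Sox9 heterozygote sample lay within the double heterozygotes, and all Pdx1 heterozygote samples lay above them. Its log2 difference was -0.45 against Sox9 heterozygotes (-0.82 to -0.08, adjusted p = 0.1347, FDR of 0.00328 in the authors' deposited table) and -0.38 against Pdx1 heterozygotes (-0.74 to -0.01, adjusted p = 0.3002, FDR of 0.00766), at a signal in the lowest quartile of the table. Itgb6, an epithelial Itgav partner with the same role, had 357, 355 and 280 units in double heterozygotes, against 489, 396 and 351 units in Sox9 heterozygotes and 398, 310 and 391 units in Pdx1 heterozygotes. All groups overlapped, and the log2 differences were -0.31 (-0.65 to 0.03, FDR of 0.0172 in the authors' deposited table) and -0.15 (-0.49 to 0.19). Its difference from Sox9 heterozygotes was -0.18 without their sample 1 and -0.20 without the double heterozygote sample 3, and that from Pdx1 heterozygotes was -0.03 without the double heterozygote sample 3. Itgb3 and Itgb5, further partners of Itgav, differed by at most 0.10 in size in both comparisons, at 883 to 1070 and 13701 to 18549 units. Itga8, which pairs with Itgb1 and binds nephronectin, was nearly level, with 1715 to 2088 units over all samples and log2 differences of 0.03 (-0.16 to 0.22) and 0.09 (-0.10 to 0.27).

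Beside the lower means of Itga1, Itga6 and Itgb8 in double heterozygotes, the summed signal of markers of neurons and neural crest was 2164 to 2368 units in double heterozygotes, 2941 to 3271 in Sox9 heterozygotes and 2671 to 3191 in Pdx1 heterozygotes. Of these 9 markers, 2 were in the lowest quartile of mean signal. At an unadjusted p under 0.05, 7 of the 9 were lower against Sox9 heterozygotes and 6 against Pdx1 heterozygotes, with none higher. Of the table, 13.2% and 8.38% were lower in these comparisons. Epithelial and progenitor markers summed to 244967 to 254069 units in double heterozygotes, 209002 to 221209 in Sox9 heterozygotes and 204798 to 248365 in Pdx1 heterozygotes, beside the higher means of Lama1 and Lamb3. The brightest of them, Cpa1, a digestive enzyme also made by early progenitors, made up most of the difference in sum between double and Sox9 heterozygotes, with 109553, 108986 and 112072 units in double heterozygotes, against 75082, 85744 and 74082 units in Sox9 heterozygotes and 108215, 80271 and 90628 units in Pdx1 heterozygotes. Against Sox9 heterozygotes Cdh1 differed by -0.22 (-0.39 to -0.05) and Foxa2, a transcription factor of gut endoderm, by -0.13 (-0.28 to 0.0067), both separated downward, and Epcam by 0.07 (-0.15 to 0.29). Krt19, a duct keratin, passed (log2 difference 0.84 against Sox9 heterozygotes, adjusted p = 0.0342). Of the 12 markers, 4 were higher and 2 lower against Sox9 heterozygotes at the same threshold (14.2% and 13.2% of the table). Against Pdx1 heterozygotes 3 were higher and 0 lower (7.77% and 8.38% of the table). Smooth muscle markers summed to 14853 to 18629 units in double heterozygotes, 12322 to 13334 in Sox9 heterozygotes and 14322 to 14836 in Pdx1 heterozygotes, with none of 5 in the lowest quartile. Of these 5, 2 were higher and 0 lower against Sox9 heterozygotes at that threshold (14.2% and 13.2% of the table). The 2 were Acta2 (0.37, 0.13 to 0.60) and Actg2 (0.35, 0.14 to 0.56). These brightest markers made up most of the sum. Tagln (-0.45, -1.03 to 0.13), Myh11 (-0.26) and Cnn1 (-0.17) went the other way. The median log2 difference of the list was -0.169 against Sox9 and -0.311 against Pdx1 heterozygotes. Against Pdx1 heterozygotes none was counted at that threshold. Actg2 (0.19) was separated upward there and Tagln (-0.31, FDR of 0.0066 in the authors' deposited table) downward. The part of these cell types in the results was not tested.

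The integrins of white blood cells and platelets were mostly dim. Itgam, the alpha subunit of the macrophage and granulocyte receptor, had 118, 120 and 117 units in double heterozygotes, against 133, 153 and 144 units in Sox9 heterozygotes and 105, 123 and 103 units in Pdx1 heterozygotes. The Sox9 heterozygotes were above both other groups, with a log2 difference of -0.27 for double over Sox9 heterozygotes (-0.47 to -0.08, adjusted p = 0.117, FDR of 0.0264 in the authors' deposited table) and 0.38 for Sox9 over Pdx1 heterozygotes (0.18 to 0.58, adjusted p = 0.2331). White blood cell markers summed to 5129 to 6338 units in double heterozygotes, 5792 to 6733 in Sox9 heterozygotes and 5441 to 5476 in Pdx1 heterozygotes, with none of 11 in the lowest quartile. At an unadjusted p under 0.05, 1 was higher and 1 lower in double than in Sox9 heterozygotes (14.2% and 13.2% of the table). In double against Pdx1 heterozygotes 3 were higher and 0 lower (7.77% and 8.38% of the table). None was counted between the single heterozygotes at that threshold. Yet 5 of the 11 were separated upward in Sox9 over Pdx1 heterozygotes and 0 downward, where 6.54% of the table was separated upward and 6.04% downward. The median log2 difference of the 11 was 0.154 in that comparison and 0.217 in double over Pdx1 heterozygotes. In double over Pdx1 heterozygotes 3 were separated upward and 0 downward (11.6% and 11.4% of the table). Itgam differed there by 0.11 (-0.09 to 0.30). The part of these markers in the result was not tested. Itgb2, the partner of Itgam, had overlapping groups at 116 to 171 units, as had Itgal at 188 to 272, Itgax at 80 to 91, Itgae at 91 to 110 and Itgb7 at 141 to 254. The platelet subunit Itga2b was at 131 to 248 units, with log2 differences of 0.03 and -0.09. Itga4, a receptor subunit for fibronectin and Vcam1, had every double heterozygote sample below every Sox9 heterozygote sample, at 88 to 113 against 114 to 118 units. Its log2 difference was -0.17 (-0.43 to 0.09), at a signal in the lowest quartile of the table. Itgb4bp differed by -0.31 (-0.71 to 0.10, FDR of 0.0324 in the authors' deposited table) and -0.20 (-0.60 to 0.21), and its value against Sox9 heterozygotes was -0.17 without the double heterozygote sample 3 and -0.11 without the Sox9 heterozygote sample 1.

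**Figure D3:**
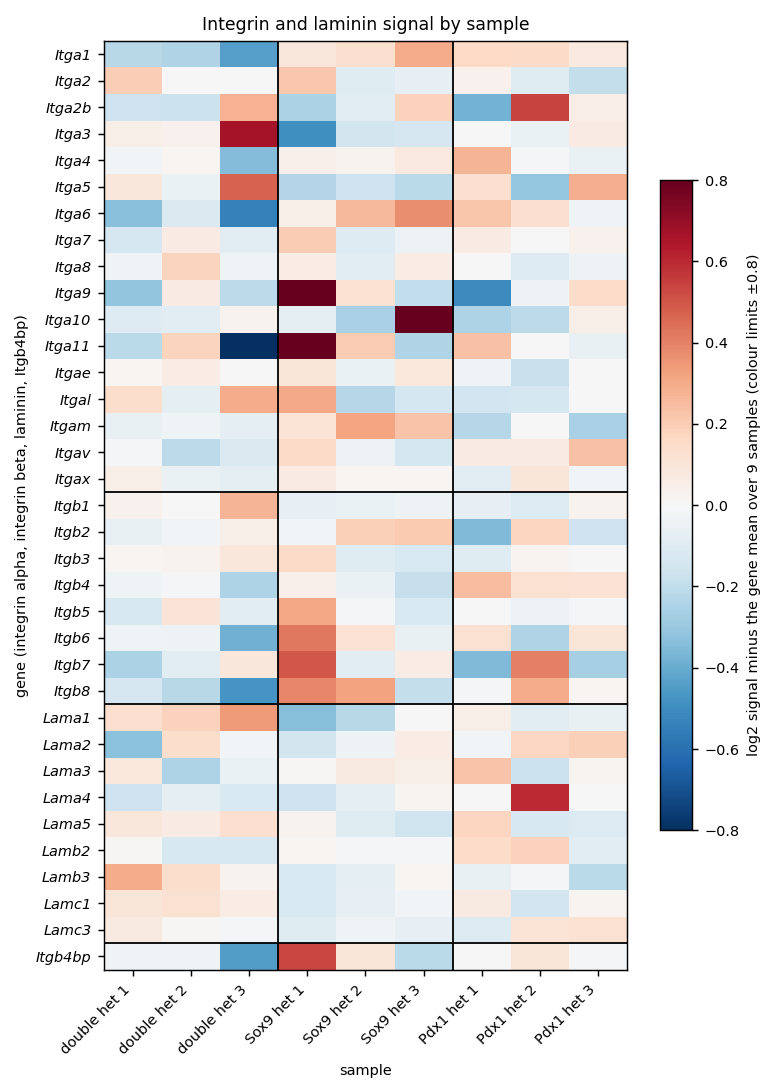
Log2 signal of the genes reported here in each sample, minus the gene's mean over the 9 samples, with genes grouped as integrin alpha, integrin beta, laminin and Itgb4bp; colours stop at 0.8 in either direction. The Sox9 heterozygote sample 1 and the double heterozygote sample 3 hold many of the strongest colours.

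The extremes fell unevenly over the samples. The double heterozygote sample 3 was the lowest of all 9 samples for 8 of the 36 genes, among them Itga1, Itga6, Itgb8 and Itga11, and the highest for 4, namely Lama1, Itga3, Itga5 and Itgb1. It was the lowest for 27% and the highest for 26.1% of all genes. The Sox9 heterozygote sample 1 was the highest for 12 of the 36 genes, 33.3% against 21.2% of all genes. Of these 12, 11 encode integrin subunits, as do 25 of the 36 genes, and Itgb4bp is the other. Itga9, which binds tenascin, showed this most clearly, with 1635, 2122 and 1758 units in double heterozygotes, against 3883, 2209 and 1773 units in Sox9 heterozygotes and 1428, 1979 and 2252 units in Pdx1 heterozygotes. The same sample had the lowest signal of Lama1 and Itga3, and the highest sum of mesenchymal markers, 104876 units. Vim (75025 units) and Pdgfrb (19381 units) made up most of that sum, and the markers did not move together. In this sample Vim, Pdgfrb, Lum, Pdgfra and Postn had their highest signal of the 9 samples. Col1a1 (2141 units), Barx1 (2002 units), Tcf21 (2228 units) and Col1a2 (91 units) had their lowest.

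**Figure D4:**
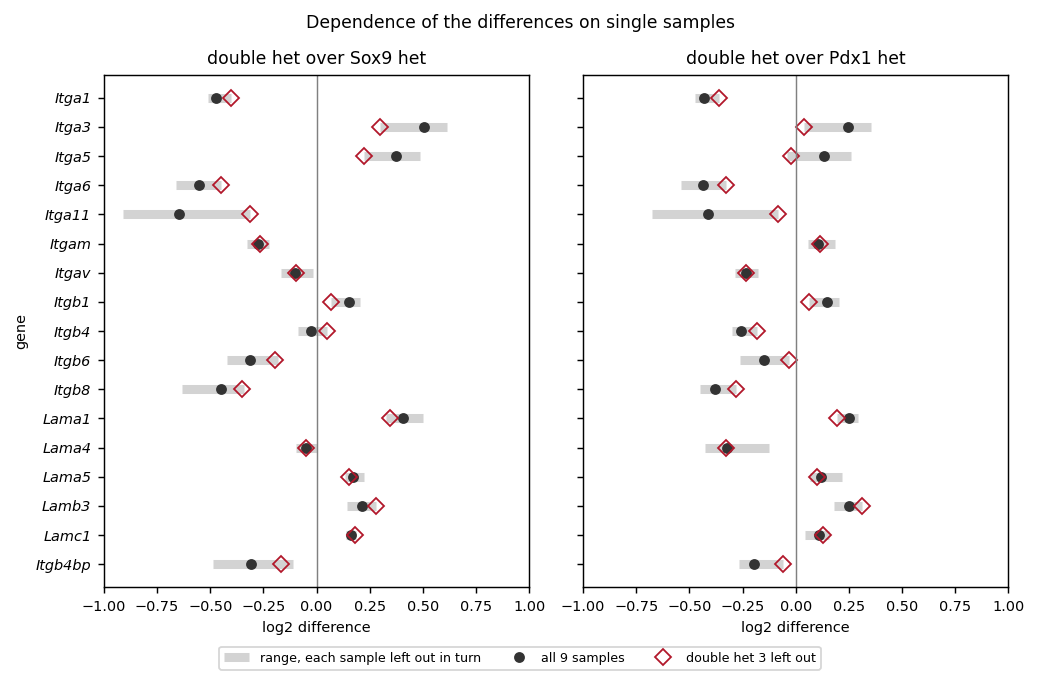
Log2 difference of the genes given with ranges, with all 9 samples (filled circles) and without the double heterozygote sample 3 (open diamonds); grey bars span the values with each sample left out in turn. Itgav hardly moves, whereas Itga3 and Itga11 move towards 0 in both panels and Itga5 crosses 0 against Pdx1 heterozygotes.

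Between Sox9 and Pdx1 heterozygotes, 2 of the 36 genes had an unadjusted p under 0.05, 5.56% against 6.29% of the table (3.57% higher, 2.72% lower). They were Itgam, above, and Itgb4, with a log2 difference of -0.23 for Sox9 over Pdx1 heterozygotes (-0.44 to -0.02, adjusted p = 0.7109). The groups did not overlap for Itgam upward (6.54% of the table) and for Itgb4 and Itga3 downward (6.04% of the table). For Lama1 this difference was -0.15 (-0.38 to 0.07), for Itga1 0.04 (-0.16 to 0.23) and for Itga6 0.12 (-0.17 to 0.41). The median absolute log2 difference was 0.107 over the 36 genes and 0.082 over the table.

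The partners of laminins in the basement membrane did not pass in any comparison either (0 of 23 measured genes). Against Sox9 heterozygotes, 4 were higher and 3 lower at an unadjusted p under 0.05, where 14.2% of the table was higher and 13.2% lower, and the median log2 difference was -0.05. Nid1, the nidogen that links laminin to collagen IV, had 12144, 15327 and 10458 units in double heterozygotes, against 19940, 15820 and 14662 units in Sox9 heterozygotes, a log2 difference of -0.42 (-0.76 to -0.07, adjusted p = 0.1388, FDR of 0.0328 in the authors' deposited table). Against Pdx1 heterozygotes, with 13810, 14565 and 15855 units, it was -0.24 (-0.58 to 0.11). Col18a1, a basement membrane collagen, had 23460, 22709 and 18447 units in double heterozygotes, against 29580, 25389 and 26255 in Sox9 heterozygotes and 25558, 26979 and 27568 in Pdx1 heterozygotes. It lay below all single heterozygotes, with log2 differences of -0.33 (-0.57 to -0.10) and -0.32 (-0.55 to -0.08, adjusted p = 0.1138 and 0.2203). Col4a1, a collagen IV chain, differed by 0.32 (0.04 to 0.60) against Sox9 and 0.21 (-0.07 to 0.49) against Pdx1 heterozygotes, and Fbln2, a matrix protein that binds nidogen, by -0.57 (-1.04 to -0.11) and -0.37 (-0.84 to 0.10). Against Pdx1 heterozygotes 2 of the 23 were higher and 1 lower at that threshold, where 7.77% of the table was higher and 8.38% lower, and the median was 0.10.

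Among the integrin ligands other than laminin, Fn1, fibronectin, had the smallest adjusted p of the partner lists. Its signal was 2596, 2539 and 4124 units in double heterozygotes, against 1445, 1758 and 1777 units in Sox9 heterozygotes and 2468, 2413 and 2483 units in Pdx1 heterozygotes. The Sox9 heterozygotes lay below both other groups, and the log2 difference against them was 0.86 (0.48 to 1.25, adjusted p = 0.0851, FDR of 5.21e-06 in the authors' deposited table). Against Pdx1 heterozygotes it was 0.29 (-0.09 to 0.68, adjusted p = 0.4013). Vtn, vitronectin, had 29190, 27063 and 34255 units in double heterozygotes, against 16166, 20942 and 22434 units in Sox9 heterozygotes and 21222, 15959 and 19637 units in Pdx1 heterozygotes, with log2 differences of 0.61 (0.27 to 0.95, adjusted p = 0.1004) and 0.67 (0.33 to 1.02, adjusted p = 0.1364). All double heterozygote samples were above all others for Vtn and for Fn1. None of the 16 ligands passed, and 5 were higher and 2 lower against Sox9 heterozygotes, and 2 higher and 0 lower against Pdx1 heterozygotes, at an unadjusted p under 0.05, which 27.4% and 16.1% of the table reached.

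Of 29 measured genes that couple integrins to the cytoskeleton, none passed. At an unadjusted p under 0.05, 6 were higher and 4 lower against Sox9 heterozygotes, where 27.4% of the table was counted, and 1 was higher and 1 lower against Pdx1 heterozygotes, where 16.1% was. Ilk, the integrin-linked kinase, had 3512, 3659 and 4474 units in double heterozygotes, against 2394, 2879 and 3262 units in Sox9 heterozygotes and 3239, 2887 and 3352 units in Pdx1 heterozygotes, above all single heterozygotes, with log2 differences of 0.45 (0.16 to 0.75, adjusted p = 0.1105) and 0.29 (-0.0043 to 0.59, adjusted p = 0.3135). Tln1, talin, which binds beta subunit tails, differed by 0.46 (0.08 to 0.85) and 0.28 (-0.10 to 0.66), and Lims2, a partner of Ilk, by -0.51 (-0.88 to -0.14) and -0.19 (-0.56 to 0.18). Among 8 other laminin receptors, Bcam differed by 0.32 against Sox9 heterozygotes (0.09 to 0.55, adjusted p = 0.1148) and 0.08 against Pdx1 heterozygotes (-0.15 to 0.30), and Dag1, dystroglycan, by 0.27 (-0.02 to 0.56) and 0.31 (0.02 to 0.60). None of these receptors passed. At an unadjusted p under 0.05, 1 was higher and 0 lower in each comparison with double heterozygotes. Of the table, 27.4% was counted against Sox9 and 16.1% against Pdx1 heterozygotes. In Sox9 against Pdx1 heterozygotes, 0 were higher and 1 lower (Bcam, -0.25), where 6.29% of the table was counted.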

How the data were processed

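The authors' deposited signal intensities, 1 value per probe and sample and 1 probe per gene, were on a linear scale and already normalized; per the labels the arrays were 1-colour Agilent arrays hybridised with Cy3-labelled RNA. The normalization and the background correction are not stated in the sources that were used, and limma is named per the submitters' processing notes without a role. The authors' deposited table also holds log2 ratios of double over each single heterozygote and a p-value-like FDR column for each, whose calculation is not given; these log2 ratios equal the differences of mean log2 intensity within 0.001 in 18541 genes. The 9 columns named by array barcode were not used, since no label ties them to samples, so slides could not be tested as batches. 

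Log2 intensities, with no pseudocount because the lowest value was 32, were fitted over all 18541 genes with limma 3.58.1 (lmFit, eBayes, 1 mean per genotype, 3 contrasts) in R 4.3.3, with Benjamini-Hochberg adjustment. The fit was tested on simulated data. The intensities had been planned to be read as log2 values and were log2-transformed instead. The labels call the samples biological replicates from littermates; p-values measure the spread between these pooled samples, and the number of arrays limits the precision. Samples of the same number did not deviate together in a uniform way (r from -0.177 to 0.239, 4 of 9 pairs over 0.1). These 4 pairs all included a double heterozygote sample, and pairs of unlike number were not compared. The number was not used as a block in the main fit. Genes and lists were chosen with earlier results of these data known. Values in every sample were to be given for genes that passed and for Itga6, Itga3, Itgb1, Itgb4, Itgav, Lama1, Lama5 and Lamc1; the other genes shown by sample were chosen after their values were seen, and up to 5 genes per pathway list were eligible by size of difference. Alternatives were quantile normalization, leaving out dim probes, a replicate block, an intensity trend, fits of 2 groups, a 1.5-fold minimum, single samples left out and the deposited FDR; an adjusted p of 0.1 was added after seeing the data. Figures were drawn with matplotlib 3.10.9. The counts cover all 36 genes, of which 1 is not reported here by name.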

Additional observations from a re-analysis of the deposited data

How the results depend on the processing

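None of the integrin and laminin genes passed in the 3 comparisons with quantile normalization, with an intensity trend and robust prior, in fits of only the groups compared, with a 1.5-fold minimum, or with any 1 sample left out (0 genes at the lowest and 0 at the highest). With the replicate number as a block, 0 genes passed in each comparison as well. Without the dimmest quartile of probes 2 genes passed in double over Sox9 heterozygotes, among them Itga1 (adjusted p = 0.0492), with an unchanged log2 difference and fewer genes tested. In the other comparisons 0 passed. Calls over all genes also rose in both comparisons with the double heterozygotes, as given below. At an adjusted p under 0.1, chosen after seeing the data, 3 passed in that comparison (among them Itga1 and Itga6, 8.33% against 2.5% of all genes) and 0 in the others. By the FDR of the authors' deposited table, 11 genes passed against Sox9 and 9 against Pdx1 heterozygotes; the cause of the gap to the limma fit was not tested.

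Against Pdx1 heterozygotes, 8 genes had an unadjusted p under 0.05 with all samples and 4 without the double heterozygote sample 3; against Sox9 heterozygotes, 8 did with all samples and 5 without the Sox9 heterozygote sample 2. Between the single heterozygotes, 2 did with all samples and 5 without the Pdx1 heterozygote sample 2. With all samples the shares of the table were 16.1% against Pdx1 heterozygotes, 27.4% against Sox9 heterozygotes and 6.29% between the single heterozygotes. These shares were not computed with a sample left out, so whether the 36 genes moved more than the table is not shown. Among the genes given with ranges, signs turned with 1 sample left out as follows. Over these 9 fits, double over Sox9 heterozygotes ran from -0.087 to 0.047 for Itgb4 and from -0.095 to 0.00022 for Lama4, and double over Pdx1 heterozygotes from -0.043 to 0.258 for Itga5. Sox9 over Pdx1 heterozygotes ran from -0.024 to 0.079 for Itga1, -0.038 to 0.254 for Itgb8, -0.026 to 0.078 for Lamb3, -0.087 to 0.290 for Itgb4bp, -0.076 to 0.50 for Itga11, -0.034 to 0.036 for Itgb1 and -0.105 to 0.044 for Lama5. Over all genes, calls in the fits with all samples numbered 57, 20 and 43 in the order of the comparisons above, 92 and 43 in the comparisons with the double heterozygotes without the dimmest quartile, 3 and 2 in fits of only the groups compared, and 18 between the single heterozygotes with the block. With single samples left out they ran from 4 to 68, 1 to 9 and 4 to 71. Of the 36 genes, 11 lay in the lowest quartile of mean signal, where signal over background limits what a ratio can show.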
